A study of Mus musculus with 2 samples.

Results

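The genes described here encode the basement membrane, the thin sheet of matrix under epithelia and around vessels, muscle and nerve, together with the Fraser complex that fastens embryonic epithelium to the tissue below it. The 33 genes were given as a list of symbols grouped by function, drawn up with earlier results of these data known, and all 33 were found among the 43346 gene rows. They were measured by total RNA sequencing of the facial prominences, the swellings of the embryonic head that form the jaws, nose and palate, taken from mouse embryos at embryonic day 13.5. There were 2 libraries, both of the strain labelled B6NCrl, healthy, untreated, from pooled male and female embryos, each made from 10 ng of RNA longer than 200 nt. The labels give them as biological replicates 1 and 2 of 1 group. Each has its own biosample identifier, and the donor identifier is the same. The series holds no contrast between conditions, and no p-value is given. The SD between the libraries covers biosample and library preparation together.

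Basement membranes are built on a laminin polymer and a collagen IV network. Laminins are trimers of an alpha, a beta and a gamma chain, and collagen IV forms trimers of the alpha 1 and alpha 2 chains, of the alpha 3, 4 and 5 chains, or of the alpha 5 and 6 chains. Nidogens and the heparan sulfate proteoglycans perlecan (Hspg2) and agrin (Agrn) join both networks, and dystroglycan and integrins bind them to cells. In skin, FRAS1, FREM1 and FREM2 form a complex in the matrix below the epithelial basement membrane, and loss of any of them in mice causes embryonic blistering, with eyelid, digit and kidney defects as in human Fraser syndrome.

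The libraries held 28542452 and 22719352 expected counts on gene rows, for replicates 1 and 2 in this order here and below. The 33 genes took 84429 and 69621 of these, or 0.296% and 0.306%. A count of 0 would allow up to 0.105 and 0.132 CPM (counts scaled to a gene-row total of 1000000; the floor is 3 counts), and intervals and floors cover counting error only. All 8 mesenchyme markers and all 10 surface epithelium markers were at 1 TPM (transcript abundance per length, scaled to 1000000) or more in both libraries, and so were all 8 endothelial and all 8 skeletal muscle markers. Replicate 2 stood apart in markers of other organs. The 8 liver markers summed to 4.15 TPM in replicate 1 and 278 TPM in replicate 2, with 1 of 8 and 8 of 8 at 1 TPM or more. The 7 heart markers summed to 6.86 and 58.9 TPM, with 1 of 7 and 7 of 7 at 1 TPM or more. The part of these cells or RNAs in the levels below was not tested, so each value is given per library.

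Of the 33 genes, 29 were detected, meaning 1 TPM or more in both libraries, against a background of 60.9% of 21474 protein-coding genes and 34.4% of all gene rows. The 4 others were the collagen IV chains Col4a3, Col4a4 and Col4a6 and the Fras1 relative Frem3. Col4a6, at 0.96 and 0.95 TPM, was just under the threshold and averaged 1.08 TPM with spike-ins left out of the scale. The median level of the 33 genes was 17.4 TPM in replicate 1 and 19.1 TPM in replicate 2, with 18.2 TPM for the means of both libraries, while the median of all protein-coding genes was 4.68 TPM and of the detected ones 18.9 TPM. The highest were Col4a1, Agrn, Col18a1, Lama4 and Lamb1, all above 60 TPM on average.

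**Figure D1:**
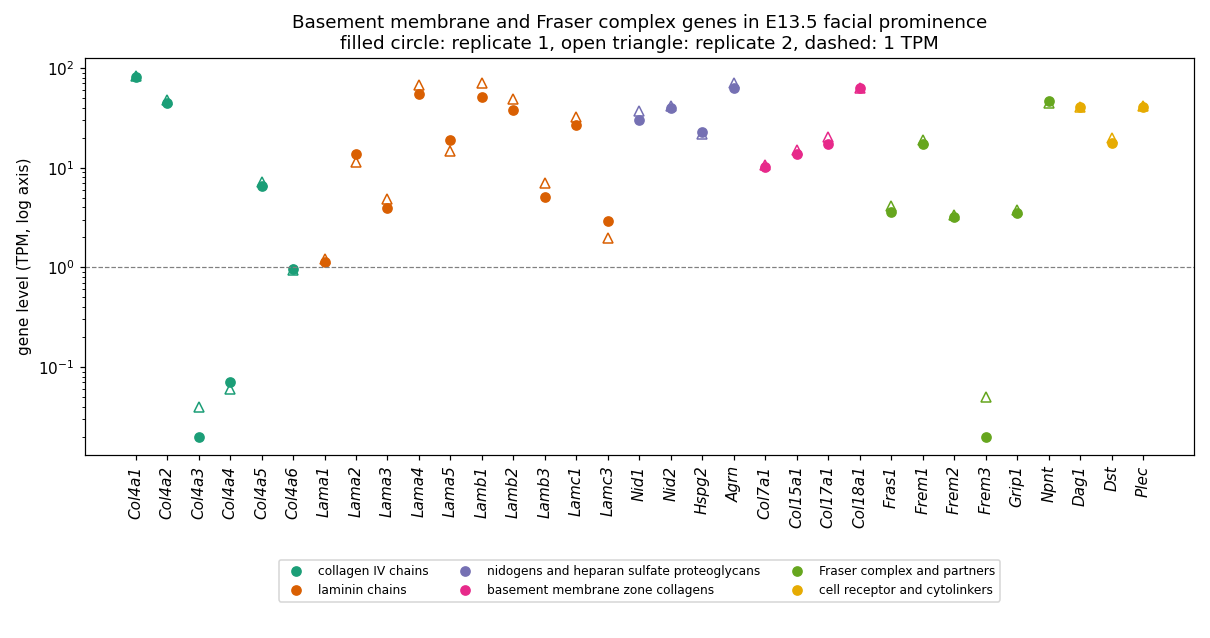
Level of each of the 33 genes in TPM (vertical log axis) in replicate 1 (filled circles) and replicate 2 (open triangles), coloured by role; the dashed line is at 1 TPM. Col4a1 is the highest at 82.2 TPM on average, and Col4a3, Col4a4, Col4a6 and Frem3 lie under the line in both libraries.

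For several genes much of the level was assigned to short or incomplete transcripts. Levels were therefore also summed over transcripts annotated with a complete coding sequence, an alternative chosen after the data were seen. Such transcripts held a median of 93.1% of a gene's TPM, over 90% in 18 genes and under 50% in 6. The same shares over all genes are not given here, so these counts only describe the 33 genes. The 6 were Col4a5, Lama2, Lama5, Agrn, Dst and Plec, and below both levels are given wherever they differ by more than 1.5-fold. On complete coding transcripts the median level of the 33 genes was 10.6 TPM.

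**Figure D2:**
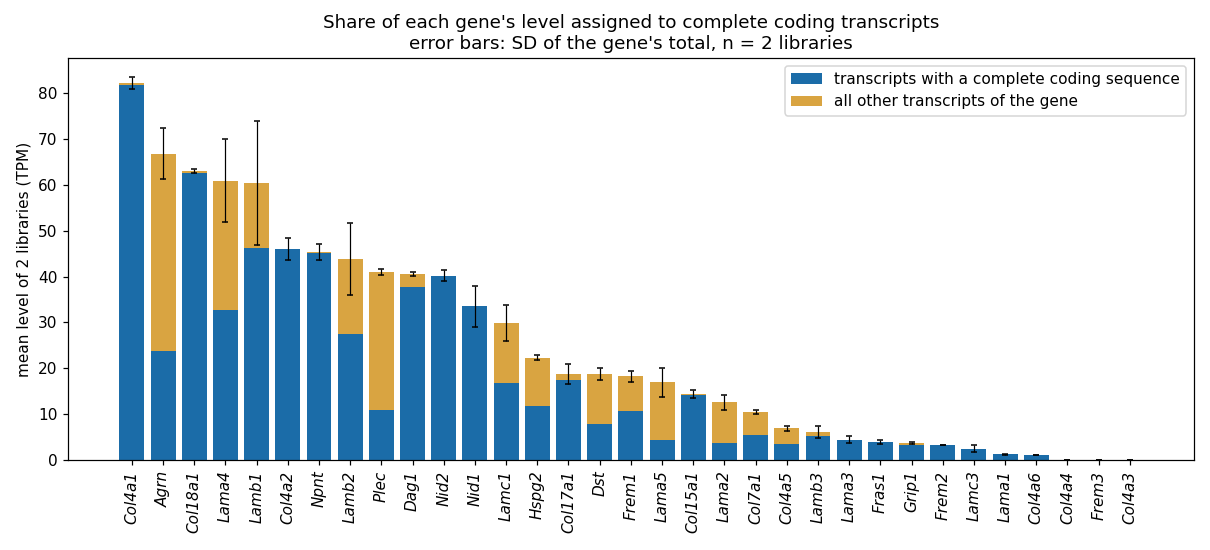
Mean level of each gene in TPM (vertical axis, n = 2 libraries), divided into transcripts with a complete coding sequence (blue) and all other transcripts (yellow), with the SD of the total. Agrn and Plec are mostly yellow, with 35.6% and 26.4% of TPM on complete coding transcripts, while Col4a1, Col18a1 and Nid2 are almost wholly blue.

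Collagen IV transcripts were almost all of the ubiquitous alpha 1 and alpha 2 chains. Their genes, Col4a1 (chr8:11198423-11312826, minus strand) and Col4a2 (chr8:11312805-11449287, plus strand, mm10), lie head to head, with annotated starts 21 nt apart and 22 nt of overlap. The RefSeq promoter windows (GRCm38.p6, 250 bases before to 50 after the start) are shown because the genes share them: the capitals mark the 78 bases, chr8:11312777-11312854, that are in both windows and read as reverse complements of each other. The windows are chr8:11312777-11313076, read on the minus strand, and chr8:11312555-11312854, read on the plus strand.
Col4a1: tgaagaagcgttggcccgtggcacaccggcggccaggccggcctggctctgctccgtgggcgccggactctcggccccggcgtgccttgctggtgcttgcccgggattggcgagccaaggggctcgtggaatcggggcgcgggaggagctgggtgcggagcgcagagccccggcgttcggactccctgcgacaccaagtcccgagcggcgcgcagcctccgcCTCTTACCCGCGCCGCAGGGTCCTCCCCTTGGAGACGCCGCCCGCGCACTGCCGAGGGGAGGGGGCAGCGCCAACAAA
Col4a2: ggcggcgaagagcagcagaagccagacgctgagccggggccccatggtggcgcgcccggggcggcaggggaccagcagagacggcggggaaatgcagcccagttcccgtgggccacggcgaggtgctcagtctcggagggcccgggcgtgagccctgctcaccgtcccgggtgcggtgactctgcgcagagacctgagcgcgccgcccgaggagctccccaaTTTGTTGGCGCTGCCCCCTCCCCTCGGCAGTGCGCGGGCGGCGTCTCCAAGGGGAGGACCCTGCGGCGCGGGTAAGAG

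The GC content of the windows was 74.0% for Col4a1 and 73.7% for Col4a2, against a median of 52.7% over 32851 RefSeq promoter windows of mouse genes. Searched on both strands, GGGCGG (the GC box) occurred at 1 place in the Col4a1 window and 3 in the Col4a2 window, and CCAAT at 1 in each. TATAAA was in neither window. Over all promoter windows 35.7% held GGGCGG, 37.4% held CCAAT and 13.6% held TATAAA.

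Col4a1 stood at 81.2 and 83.1 TPM (82.2 ± 1.34, SD, n = 2). Col4a2 was at 44.2 and 47.7 TPM (45.9 ± 2.44, SD, n = 2). Col4a1 RNA was 1.84-fold and 1.74-fold as abundant as Col4a2 RNA, with counting intervals (95%) of 1.78 to 1.90 and 1.68 to 1.81. The log2 ratio was 0.84 ± 0.05 (SD, n = 2), above its spread between the libraries. Of all collagen IV TPM, Col4a1 made up 60.4% ± 0.915 and Col4a2 33.8% ± 0.730 (SD, n = 2).

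The chains of the other collagen IV networks were scarce. Col4a5, the alpha 5 chain mutated in human X-linked Alport syndrome, was at 6.54 and 7.25 TPM, of which 3.20 and 3.63 TPM were on complete coding transcripts. The rest was on Col4a5-204, a transcript of 3511 nt with an incomplete coding sequence, which took 50.5% ± 0.806 (SD, n = 2) of the gene's TPM. Col4a6, its head-to-head neighbour on the X chromosome, was at 0.96 and 0.95 TPM (133 and 100 counts), with its start 1309 nt from that of Col4a5. Col4a5 was 6.81-fold and 7.63-fold above Col4a6, and 3.33-fold and 3.82-fold on complete coding transcripts. Col4a3 and Col4a4, the chains of the adult kidney glomerulus, lie head to head on chromosome 1 with starts 72 nt apart. Col4a3 had 4 and 5.73 expected counts (0.02 and 0.04 TPM), and Col4a4 had 15 and 10 (0.07 and 0.06 TPM). Per length, Col4a1 counts were 3630-fold and 1980-fold those of Col4a3, with counting intervals of 1420 to 13300 and 868 to 5150. This size depended on the estimate used. By the authors' posterior mean TPM, Col4a3 averaged 0.29 TPM. The log2 ratio of Col4a1 to Col4a3 was then 8.12 ± 0.27, against 11.5 ± 0.68 by TPM (SD, n = 2). Col4a3 and Col4a4 could not be told apart at this depth.

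Among the laminin alpha chains Lama4, the alpha 4 chain of vessel and mesenchymal laminins, was the highest. Lama4 (chr10:38965515-39110188) was at 54.5 and 67.3 TPM (60.9 ± 9.08, SD, n = 2) and made up 63.3% ± 6.09 of the TPM of the 5 alpha genes. On complete coding transcripts it was at 28.1 and 37.2 TPM, or 70.2% ± 2.45 of the alpha sum. Lama4-207, a retained-intron transcript of 511 nt, held 29.7% of the gene's TPM.

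Lama5, the alpha 5 chain of most embryonic epithelial basement membranes, differed most between the measures among the alpha chains. Over all transcripts Lama5 (chr2:180176373-180225859) was at 19.1 and 14.7 TPM (16.9 ± 3.11, SD, n = 2). Its only coding transcript, Lama5-201, with a coding sequence of 11154 nt, was at 4.29 and 4.53 TPM (4.41 ± 0.170, SD, n = 2), which is 26.7% of the gene's TPM. The remainder lay on the non-coding transcripts Lama5-202, Lama5-203 and Lama5-204, of 451, 734 and 478 nt. In counts, which are not divided by length, Lama5-201 held 1025 and 824 of the gene's 1166 and 899. Lama2, the alpha 2 chain of muscle and nerve laminins, was at 13.6 and 11.4 TPM, with 3.62 and 3.93 TPM on complete coding transcripts. Lama1, the alpha 1 chain of early embryonic basement membranes, was at 1.13 and 1.20 TPM.

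Lama3, the alpha 3 chain of the laminin that anchors hemidesmosomes in skin, was at 3.94 and 4.90 TPM (4.42 ± 0.679, SD, n = 2). Of this, 95.5% ± 0.857 (SD, n = 2) was on Lama3-202, the short form with a coding sequence of 5172 nt, and 4.48% on the long form Lama3-201, with 9990 nt. By gene totals Lama5 was 4.85-fold and 3.0-fold above Lama3. On complete coding transcripts the ratios were 1.09 and 0.924, so that the order of Lama5 and Lama3 turned between the libraries and the genes were not separated. Lama4 stayed above Lama2 by either measure, with log2 ratios of 2.28 ± 0.40 over all transcripts and 3.10 ± 0.20 on complete ones (SD, n = 2). Lama5 and Lama2 were not apart, at a log2 ratio of 0.43 ± 0.09 (SD, n = 2) with overlapping credibility intervals.

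The beta chains were led by Lamb1, the widespread beta 1 chain. Lamb1 was at 50.8 and 70.0 TPM (60.4 ± 13.6, SD, n = 2), or 54.6% ± 1.04 of beta chain TPM. Lamb2, the beta 2 chain known from kidney and neuromuscular basement membranes, was at 38.4 and 49.4 TPM (43.9 ± 7.83, SD, n = 2), with 26.7 and 28.4 TPM on complete coding transcripts. Both were higher in replicate 2 in TPM, and the log2 ratio of Lamb1 to Lamb2 within a library was 0.45 ± 0.07 (SD, n = 2). Lamb3, the partner of Lama3 in the hemidesmosomal laminin, was at 5.07 and 7.00 TPM, 10.0-fold below Lamb1 in each library. Lamb3 exceeded Lama3 by a log2 ratio of 0.44 ± 0.11 (SD, n = 2), a small difference in per-length level that became -0.24 in counts not divided by length. On complete coding transcripts the ratio was 0.26 ± 0.15 (SD, n = 2), under 3 times its SD. In replicate 2, 1.55 TPM of Lamb3 was on Lamb3-203, a non-coding transcript of 461 nt with 9.02 counts.

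Of the gamma chains measured here, Lamc1, which pairs with most alpha and beta chains, was at 27.0 and 32.6 TPM (29.8 ± 3.95, SD, n = 2) and 16.2 and 17.3 TPM on complete coding transcripts. Lamc3, the gamma 3 chain, was at 2.94 and 1.99 TPM. Over all transcripts the alpha, beta and gamma sums were 92.2, 94.2 and 29.9 TPM in replicate 1 and 99.5, 126 and 34.6 TPM in replicate 2. On complete coding transcripts they were 41.1, 73.1 and 19.2 TPM in replicate 1 and 51.8, 84.8 and 19.0 TPM in replicate 2. The gamma sum covers only Lamc1 and Lamc3 because the gamma 2 chain was not analysed here.

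The linker genes were all well detected. Nid1 was at 30.3 and 36.7 TPM and Nid2 at 39.3 and 41.1 TPM, each on 1 annotated transcript. Nid2 was higher in both libraries, but the log2 ratio of Nid1 to Nid2, -0.27 ± 0.15 (SD, n = 2), was under 3 times its SD, and in counts not divided by length it was 0.04. The Nid2 gene body overlaps that of Rtraf on the opposite strand by 437 nt, and Rtraf had 5668 and 4319 counts. Other genes have opposite-strand overlaps too. Grip1 overlaps Helb (630 and 529 counts) by 3654 nt, and Lamb3 overlaps G0s2 (267 and 266 counts) by 1057 nt. Col18a1 overlaps Slc19a1 (943 and 675 counts) by 8825 nt. No source used here says whether reads were counted by strand.

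Agrn (chr4:156165290-156197488), the proteoglycan that clusters acetylcholine receptors at the nerve-muscle synapse and binds dystroglycan, was at 62.9 and 70.8 TPM. Of this, 61.1% ± 0.657 (SD, n = 2) was on Agrn-205, a retained-intron transcript of 2071 nt with 1614 and 1366 of the gene's 5133 and 4465 counts, and complete coding transcripts held 22.4 and 25.1 TPM. The coding level lay mostly on Agrn-206, from the upstream start at position 156197488, with 20.4 and 19.5 TPM. The downstream start at 156186259 had 3.60 and 7.88 TPM over its 4 transcripts, a wide spread (5.74 ± 3.03, SD, n = 2). Hspg2, perlecan, was at 22.7 and 21.9 TPM, with 11.8 and 11.7 TPM on complete coding transcripts and 47.4% of its TPM on Hspg2-202, of 820 nt. Agrn exceeded Hspg2 by either measure. The log2 ratio of Hspg2 to Agrn was -1.58 ± 0.16 over all transcripts and -1.02 ± 0.13 on complete ones (SD, n = 2).

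Of the collagens associated with the basement membrane zone, Col18a1 was the highest, and nearly all of its TPM was assigned to 1 of its annotated starts. Col18a1 encodes collagen XVIII, whose C-terminal fragment is endostatin. The gene (chr10:77052178-77166548, minus strand) has annotated starts 52825 nt apart, and both RefSeq promoter windows are shown because the levels assigned to them differed so widely. Capitals mark matches to GGGCGG or CCAAT on either strand. The upstream window is chr10:77166481-77166780 and the downstream window is chr10:77113656-77113955, both read on the minus strand.
Col18a1 upstream start: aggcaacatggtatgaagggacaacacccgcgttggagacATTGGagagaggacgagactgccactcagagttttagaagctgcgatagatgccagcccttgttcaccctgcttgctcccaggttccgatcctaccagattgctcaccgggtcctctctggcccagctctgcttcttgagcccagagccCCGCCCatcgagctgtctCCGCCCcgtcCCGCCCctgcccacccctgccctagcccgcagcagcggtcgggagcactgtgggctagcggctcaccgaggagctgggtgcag
Col18a1 downstream start: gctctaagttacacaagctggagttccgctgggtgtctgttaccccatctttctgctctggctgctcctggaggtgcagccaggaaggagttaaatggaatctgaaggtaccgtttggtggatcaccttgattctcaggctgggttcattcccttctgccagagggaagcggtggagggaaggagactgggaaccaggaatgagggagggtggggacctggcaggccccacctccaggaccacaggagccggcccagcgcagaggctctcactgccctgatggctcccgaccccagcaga

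Transcript Col18a1-202, which begins at the upstream start and has a coding sequence of 3945 nt, held 61.7 and 62.3 TPM, or 98.4% ± 0.0331 (SD, n = 2) of the gene. Transcripts Col18a1-201 and Col18a1-203, from the downstream start and with longer coding sequences of 5322 and 4581 nt, together held 0.68 and 0.42 TPM, or 0.875% of the gene. The upstream window held 3 matches to GGGCGG and 1 to CCAAT, and the downstream window held neither motif. Both are common letters, found in 35.7% and 37.4% of all windows, and a match is only a description of the sequence.

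Col15a1, encoding the related collagen XV, was at 13.8 and 14.9 TPM. It lay below Col18a1 by a log2 ratio of -2.13 ± 0.07 (SD, n = 2). Its TPM was split between Col15a1-202, with a coding sequence of 4101 nt (46.5%), and the short Col15a1-203, with 834 nt (49.6%), and which of them led differed between the libraries. Col17a1, a transmembrane collagen of hemidesmosomes, was at 17.3 and 20.3 TPM (18.8 ± 2.15, SD, n = 2), and 62.3% of it was on Col17a1-201. Col7a1, which forms the anchoring fibrils of skin, was at 10.1 and 10.7 TPM, with 5.89 and 4.78 TPM on complete coding transcripts. Col17a1 was above Col7a1 in both libraries, with a log2 ratio of 0.85 ± 0.10 over all transcripts and 1.72 ± 0.33 on complete ones (SD, n = 2).

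Within the Fraser complex, Frem1 RNA was more abundant than Fras1 and Frem2 RNA, which were close to each other. Fras1 (chr5:96373955-96784728) was at 3.62 and 4.15 TPM (3.88 ± 0.375, SD, n = 2). Frem2 (chr3:53513938-53657355) was at 3.20 and 3.32 TPM (3.26 ± 0.0849, SD, n = 2). FRAS1 and FREM2 are large membrane-anchored proteins, and each gene has 1 transcript in the files. The log2 ratio of Frem2 to Fras1 was -0.25 ± 0.10 (SD, n = 2), and their credibility intervals overlapped in replicate 1.

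Frem1 (chr4:82897920-83052339, minus strand), encoding the smaller member of the complex that lacks a membrane anchor, was at 17.4 and 19.1 TPM (18.2 ± 1.24, SD, n = 2). On complete coding transcripts it was at 9.73 and 11.4 TPM. It was above Fras1 by 4.80-fold and 4.61-fold over all transcripts and by 2.69-fold and 2.74-fold on complete ones. Frem1 has annotated starts 31064 nt apart, and their promoter windows are shown because most of the TPM was assigned to the upstream one. Capitals again mark CCAAT or GGGCGG on either strand. The upstream window is chr4:83052117-83052416 and the downstream window is chr4:83021053-83021352, both read on the minus strand.
Frem1 upstream start: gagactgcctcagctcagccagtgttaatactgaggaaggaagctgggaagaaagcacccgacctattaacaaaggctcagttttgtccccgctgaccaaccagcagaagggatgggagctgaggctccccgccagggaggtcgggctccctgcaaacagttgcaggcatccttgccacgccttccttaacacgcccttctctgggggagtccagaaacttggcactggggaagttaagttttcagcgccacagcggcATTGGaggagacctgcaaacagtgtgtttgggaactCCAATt
Frem1 downstream start: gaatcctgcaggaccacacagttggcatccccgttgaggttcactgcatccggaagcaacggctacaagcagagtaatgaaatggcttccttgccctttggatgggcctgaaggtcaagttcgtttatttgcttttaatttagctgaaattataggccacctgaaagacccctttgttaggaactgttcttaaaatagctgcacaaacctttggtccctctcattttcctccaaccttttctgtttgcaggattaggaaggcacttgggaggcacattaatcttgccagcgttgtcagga

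The 3 Frem1 transcripts from the upstream start held 13.4 and 13.8 TPM, or 74.5% ± 3.65 (SD, n = 2) of the gene. The transcript from the downstream start, Frem1-201, held 1.61 and 2.48 TPM, or 11.1% ± 2.61 (SD, n = 2). Their coding lengths hardly differ, at 6519 nt for the leading upstream transcript Frem1-208 and 6573 nt for Frem1-201. Of the upstream TPM, 5.27 and 4.85 TPM was on Frem1-205, which is annotated as non-coding. The upstream window held 2 matches to CCAAT and none to GGGCGG, and the downstream window held neither.

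Frem3, the remaining family member, had 3 and 5 counts. Per length, Frem2 counts were 142-fold and 67.3-fold those of Frem3, with counting intervals of 48.4 to 689 and 28.7 to 208. Grip1, the adaptor that carries Fras1 to the cell surface in mouse, was at 3.55 and 3.76 TPM, and 74.6% of this came from the start at chr10 position 119454034. Fras1 and Grip1 were not apart, with ratios of 1.02 and 1.10. The overlap of Grip1 with Helb given above limits this comparison, since the strand setting is not known. Npnt, nephronectin, a matrix ligand of integrin alpha 8 beta 1 that is tied to the basement membrane through the Fraser complex, was the highest of this group. It was at 46.5 and 44.1 TPM (45.3 ± 1.70, SD, n = 2), with 69.7% on Npnt-202 and 21.3% on Npnt-201. Its receptor gene Itga8 was at 13.3 and 15.9 TPM.

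On the cell side, Dag1, which encodes both subunits of dystroglycan, was at 40.96 and 40.29 TPM (40.6 ± 0.474, SD, n = 2). The cytolinkers Dst and Plec connect hemidesmosomes and other junctions to the cytoskeleton. Plec was at 40.5 and 41.5 TPM, of which 10.6 and 11.1 TPM were on complete coding transcripts, and Dst was at 17.7 and 19.7 TPM, of which 7.73 and 8.01 TPM were. The log2 ratio of Dst to Plec was -1.13 ± 0.08 over all transcripts and -0.46 ± 0.00 on complete ones (SD, n = 2). The Dst transcripts from the start at chr1 position 34011595, of 17212 to 23279 nt, held 2.54 and 3.30 TPM. Transcripts from the start at 34160260 held 4.32 and 3.95 TPM, of which 3.54 and 3.28 TPM were on Dst-213, of 8786 nt.

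Across 27 gene pairs, 23 were apart, meaning that the authors' 95% credibility intervals did not overlap in either library and the same gene was higher in both. The 4 others were Col4a3/Col4a4, Lama5/Lama2, Frem2/Fras1 and Fras1/Grip1. The pairs were chosen with earlier results of these data known, and the share over other gene pairs is not given here. The count therefore only describes these pairs. On complete coding transcripts 26 of 27 pairs kept the same order as by gene totals in both libraries, the exception being Lama5/Lama3. In Nid1/Nid2, Frem2/Fras1, Frem2/Frem3, Col4a3/Col4a4 and Col4a2/Col4a6 all TPM was on complete coding transcripts. Both measures are the same there, so the order of these pairs could not change.

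**Figure D3:**
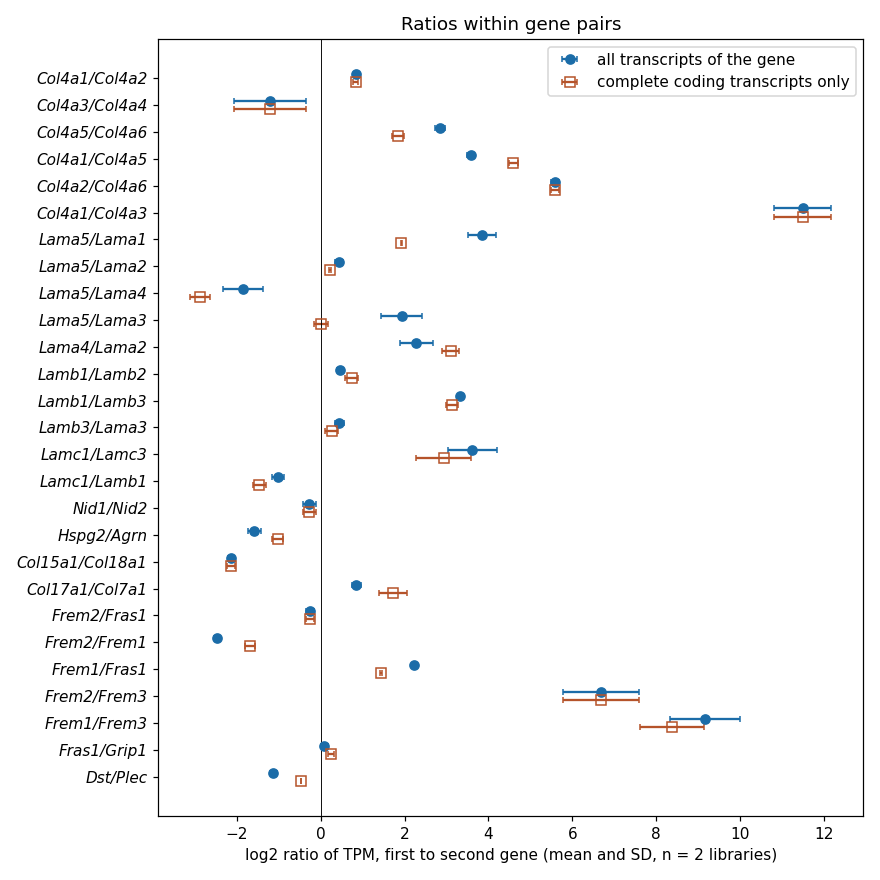
Log2 ratio of TPM within each of 27 gene pairs (horizontal axis; first gene to second, mean and SD of 2 libraries), over all transcripts (filled circles) and over complete coding transcripts (open squares). Col4a1/Col4a3 lies farthest to the right at 11.5, and Lama5/Lama3 moves from 1.93 to 0.01 between the measures.

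Between the libraries the genes differed little. In 30 genes the expected counts averaged at least 100 over the libraries, and 1 of these was past 1.5-fold, against a background of 3.19% of 12730 genes. This was Lamc3, lower in replicate 2, with 359 counts in replicate 1 and 179 in replicate 2 and a log2 ratio of -0.71 (counting interval -0.98 to -0.45). It was no longer past 1.5-fold as a ratio of TPM with a pseudocount of 1. The background was 0.786% in the lower direction and 2.4% in the higher one, in which 0 of 30 genes passed. The next largest in size was Col7a1, at -0.42 (-0.55 to -0.28) in counts, while its TPM was 10.1 and 10.7. Lama4 was the highest in replicate 2, at 0.29 (0.23 to 0.35). The counting interval left out 0 for 12 of 30 genes, 6 above and 6 below, against a background of 44.2% (16.9% above and 27.3% below). The median size of the log2 ratio was 0.076, and 0.114 over all genes tested. Such ratios compare these libraries only, and fewer cells of a type and less RNA per cell cannot be told apart in bulk tissue. Beside them, summed endothelial markers were 230 and 252 TPM, with 7 of 8 genes higher in replicate 2. Marker values here are deposited TPM, a scale that includes spike-ins, unlike the ratios. On it all gene rows summed to 865743 and 903221 TPM. As ratios of scaled counts, the endothelial markers below 0 were Tie1 (-0.07) and Sox18 (-0.13). Surface epithelium markers summed to 1345 and 1356 TPM (6 of 10 higher), with medians of 38.3 and 59.3 TPM. Their near-equal sums in TPM cover opposite shifts. Krt8 was at 31.6 and 72.2 TPM and Krt18 at 27.8 and 46.5 TPM, while Krt5 was at 375 and 310 TPM and Krt14 at 507 and 444 TPM. Mesenchyme markers summed to 3135 and 2941 TPM (2 of 8 higher). Skeletal muscle markers summed to 223 and 254 TPM, but 1 of 8 was higher in replicate 2, the gene Actc1 of skeletal and heart muscle, at 86.7 and 142 TPM. The median of the muscle markers was 16.4 and 12.5 TPM. Their part in the ratios was not tested.

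**Figure D4:**
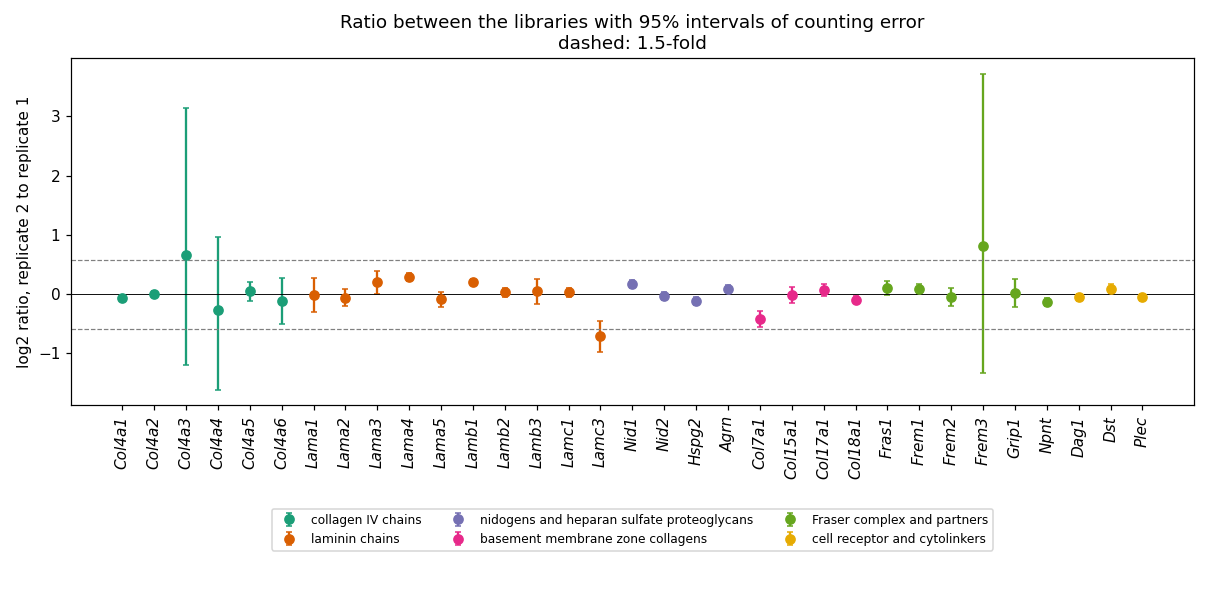
Log2 ratio of replicate 2 to replicate 1 for each of the 33 genes (vertical axis) with 95% intervals of counting error, coloured by role; dashed lines mark 1.5-fold. Lamc3 lies below the lower line at -0.71, and the wide intervals are those of Col4a3, Col4a4 and Frem3, which have 15 counts or fewer per library.

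Among 21 genes with more than 1 transcript and 5 TPM or more in both libraries, the transcript with the most TPM was the same in both libraries for 17 (81.0%), against a background of 91.7% of 7955 such genes. The 4 others were Lama2, Lama5, Col15a1 and Dst. By expected counts in place of TPM, replicates 1 and 2 shared it in 21 of 21. The share over all genes by expected counts is not given here.

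Genes that work with these proteins were mostly present as well. Of 16 other basement membrane and matrix partners 13 were detected, with a median of 10.1 TPM, and the highest were the collagen-binding protein Sparc (985 ± 30.6 TPM) and the fibulins Fbln2 (242 ± 27.3 TPM) and Fbln1 (176 ± 3.44 TPM; SD, n = 2). Hmcn2, Tinag and Ntn4 were under 1 TPM in both libraries. Of 20 receptors and anchors 17 were detected, with a median of 12.6 TPM, led by integrin beta 1, Itgb1 (173 ± 13.8 TPM), the collagen receptor Ddr2 (81.7 ± 5.15 TPM) and the laminin receptor Bcam (81.2 ± 8.15 TPM; SD, n = 2). Itga7 was under 1 TPM in both libraries. The hemidesmosomal integrin genes Itga6 and Itgb4 were at 32.5 ± 3.01 and 8.65 ± 0.0566 TPM (SD, n = 2). All 12 matched genes of dystroglycan glycosylation, which builds the sugar chain that laminin binds, were detected, with a median of 20.4 TPM. The highest were Pomgnt1 (49.3 ± 0.255 TPM), Rxylt1 (43.1 ± 1.31 TPM) and B4gat1 (39.0 ± 0.177 TPM; SD, n = 2). Of these 48 genes 42 averaged at least 100 counts, and 1 of the 42, Smoc1, was past 1.5-fold between the libraries, against the background of 3.19%. It was at 11.7 TPM in replicate 1 and 7.40 in replicate 2.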

How the data were processed

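Per the labels, total RNA over 200 nt was extracted with Ambion mirVana, 10 ng per library. The deposited notes name assembly mm10 and GENCODE M4; the aligner, quantifier and strand setting are not given in the sources used here. Per the file headers, the authors' expected counts are estimated reads per gene and transcript, with decimals in some rows. TPM values, as deposited, are scaled per length to 1000000 over all rows, ERCC spike-ins included, which took 13.4% and 9.68% of TPM. The deposited FPKM values served as an alternative. The authors' upper TPM credibility bounds were read as a signal, since their sum is not fixed. Credibility intervals surround the posterior mean and can miss the TPM estimate.

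GENCODE M21 (GRCm38, the assembly of mm10) gave symbols, transcript types and coordinates, matched by identifier without version; promoters came from RefSeq GRCm38.p6, which had 33 windows for 24 of the 33 genes. Transcripts were assigned to a RefSeq start within 500 nt of their own. The 33 genes, lists and pairs were chosen with earlier results of these data known. All 33 genes are accounted for; of related lists, the 3 highest genes and those under 1 TPM in both libraries were named. Itga8, Itga6, Itgb4, Smoc1, Actc1, Krt8, Krt18, Krt5 and Krt14 were named after their values were seen. Of 13 listed glycosylation genes, 1 is not reported here.

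For ratios between libraries, rounded expected counts on gene rows were scaled by TMM (edgeR 4.0.16, R 4.3.3) with a prior count of 1; number-only rows (0.000171% and 0.000151% of counts) and spike-ins (6.27% and 4.45%) were left out. Intervals are Clopper-Pearson 95% (scipy 1.17.1). No test between conditions was possible. The ratio step was tested on simulated data. Alternatives included DESeq2 1.42.0 size factors, other units, thresholds, pseudocounts and leaving out each library.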

Additional observations from a re-analysis of the deposited data

How the results depend on the processing

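Gene detection held at 29 of 33 without replicate 1 or replicate 2, with 30 at 0.5 TPM, 23 at 5 TPM and 28 by FPKM. It was 30 by posterior mean TPM, by TPM without spike-ins and by CPM. Col4a6 averaged 1.035 TPM by posterior mean and 1.08 TPM without spike-ins. The detected shares over all genes at these settings are not given here. The median level of 18.2 TPM was 12.5 by FPKM, 20.6 TPM without spike-ins and 10.6 TPM on complete coding transcripts, and lay between 17.4 and 19.1 TPM with 1 library left out. The number of genes past 1.5-fold, 1, became 0 as a TPM ratio with a pseudocount of 1 and 0 at a fold of 2. It became 3 of 33 with no filter on counts (Lamc3, Frem3 and Col4a3). Over all genes tested, the shares at these settings were 2.85%, 1.27% and 18.2%. Levels of 22 genes moved by more than their SD without spike-ins and those of 16 on complete coding transcripts. Leaving out spike-ins multiplies all genes of a library by the same factor. The count of 22 thus reflects how small each SD is, not which genes depend on spike-ins. Pairs apart numbered 22 to 24 over the alternatives. In counts not divided by length, which reflect transcript length too, the log2 ratio of Lamb3 to Lama3 reversed to -0.24 and that of Nid1 to Nid2 to 0.04. No paired analysis was possible because the series has 1 group. Depth limits Col4a3, Col4a4 and Frem3, and 2 libraries limit every SD.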
